A study of Mus musculus with 81 samples.

Results

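Macrophage and monocyte transcripts were followed in sorted bone marrow neutrophils of inbred mouse strains. The genes were C1qa, C1qb, C1qc and Vcam1, which mark tissue macrophages, and F13a1, Ccr2, Cx3cr1 and Ly6c2, which mark monocytes. They were found by gene symbol in the platform's annotation, and 7 of the 8 genes had a probe set of their own, out of 19752 named genes. Ly6c2 was represented by 2 probe sets that the annotation assigns jointly to Ly6c2 and Ly6c1, so no value here belongs to Ly6c2 alone.

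The study sorted bone marrow granulocytes as CD11b+ Ly6G+ cells from male mice of the production colony of the Jackson Laboratory and measured their RNA on Affymetrix whole-transcript arrays. Each array held RNA from a pool of 2 to 3 mice. The labels give an age of 6 weeks, and the series design has the mice obtained at 5 weeks. In all there were 81 arrays in 40 groups, 1 group per strain as titled, and the labels give no treatment. The groups were A/J, AKR/J, C3H/HeJ, CBA/CaJ, CBA/J, CE/J, C57BL/10J, C57BLKS/J(662), C57L/J (668), DDY/JclSidSeyFrkJ, FVB/NJ, KK.Cg-Ay/J, LGJ, LP/J(676), MA/MyJ, MRL/MpJ, NOD/ShiLtJ, NON/ShiLtJ, NOR/LtJ, NZB/BINJ, NZW/LacJ, P/J, PL/J, RIIIS/J, SEA/GnJ, SJL/J, SM/J, SWR/J and 129S1/SvImJ, and the wild-derived strains WSB/EiJ, CAST/EiJ, PWD/PHJ, MSM/Ms and JF1/Ms. KK.Cg-Ay/J carries the Ay allele in its name. A further 5 groups had a title that disagreed with the background label. They are called titled BPL (background label BALB/cByJ), titled BTBR (BPL/1J), titled Balb (BTBR T+ tf/J), titled C57BR (CBA/CaJ) and titled DBA2 (DBA/1LacJ), and the strain of each is unsettled. C57BL/6J, with 5 arrays, was the strain the others were set against. A single array came from each of SWR/J and FVB/NJ, and the remaining 37 groups had 2.

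Neutrophil markers were bright in every strain: all 12 listed neutrophil genes were measured, and their list mean lay between 13.27 and 13.41. Ly6g, an antigen used in the sort, averaged 13.64. Both Ly6g and Itgam, the CD11b gene, are on the list and were selected by the sort, so they are no independent check. The purity of each strain's cells was not tested. All values are log2 intensities, and array medians ran from 6.60 to 6.84 on that scale. NZB/BINJ replicate 1 stood apart from the rest, with a mean correlation of 0.962 with the other arrays and of 0.976 with the second array of its strain. Some results that touch NZB/BINJ are therefore given array by array or also without it. Its C1qa difference from C57BL/6J was 0.20 without replicate 2 (limma, adjusted p = 0.41), and without replicate 1 its C1qb and Vcam1 differences passed the threshold, at 1.15 (adjusted p = 0.013) and 1.69 (adjusted p = 5.4e-05).

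C1q is the recognition unit of the classical complement pathway, and its A, B and C chains are made mainly by macrophages, from genes that lie in 1 cluster. In bone marrow, resident macrophages that express C1q and the adhesion molecule VCAM-1 surround erythroblasts and take up aged neutrophils, while monocytes share a progenitor with neutrophils and leave the marrow through the chemokine receptor CCR2. Neutrophils themselves are not regarded as a main source of C1q or VCAM-1. In pools of sorted cells, fewer cells of a type and less RNA per cell cannot be told apart, and sequence variants under the probes, which follow C57BL/6J, are not separated from transcript level.

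The upstream windows of C1qb and C1qc are shown because these transcripts move together across strains and lie side by side on chromosome 4. Each window holds the 250 bases before the RefSeq gene start in assembly GRCm38.p6, read along the minus strand, at chr4:136886201-136886450 for C1qb and chr4:136892915-136893164 for C1qc. Capitals mark GAGGAA, a core bound by PU.1-type Ets factors, on either strand. Windows were found for 6 of the 8 genes, C1qa and Vcam1 being the other two.
C1qb: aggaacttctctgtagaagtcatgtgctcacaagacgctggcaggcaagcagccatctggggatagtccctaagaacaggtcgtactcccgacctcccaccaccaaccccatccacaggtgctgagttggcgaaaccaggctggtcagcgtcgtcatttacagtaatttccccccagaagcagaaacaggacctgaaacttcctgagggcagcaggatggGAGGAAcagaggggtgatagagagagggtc
C1qc: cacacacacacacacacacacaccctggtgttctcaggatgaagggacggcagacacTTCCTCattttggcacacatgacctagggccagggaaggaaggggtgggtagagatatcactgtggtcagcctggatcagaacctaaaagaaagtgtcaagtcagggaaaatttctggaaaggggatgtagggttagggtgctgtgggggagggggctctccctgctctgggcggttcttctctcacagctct
Each window held 1 GAGGAA, which in the C1qc window reads as TTCCTC on the printed strand. Of 27025 windows of the same length over the genome's genes, 23.1% held GAGGAA, so these letters are common. A match is a description of the letters alone.

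The first comparison asked how far the 8 markers differed among strains. By the moderated F test of limma, strain means differed for 7 of the 8 features at an adjusted p under 0.05, against 56.0% of all 24922 probe sets, and 6 did so with a range of strain means of at least 2-fold, against 24.5% of all. The share called with a 2-fold range is thus above that of all probe sets, though the macrophage genes in it are correlated over strains. The exceptions were Cx3cr1, which was not called, and F13a1, whose range was 0.87. The macrophage genes varied over many strains at once. Ccr2 and the shared Ly6c2 and Ly6c1 probe set instead lay at 1 level in nearly all strains, with 1 strain far above for Ccr2 and 3 strains far below for the Ly6c probe set. The share of variance lying between strains ran from 60.0% for F13a1 to 98.6% for the Ly6c probe set among the features called, was 0.472% for Cx3cr1, with a median over all probe sets of 33.7%.

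Among the complement genes, C1qb, the B chain, had the widest range. Its strain means ran from 6.44 in WSB/EiJ to 9.47 in titled BTBR with a median of 7.68, an SD over strains of 0.61 and an SD within strains of 0.35 (adjusted p = 3.4e-09). Single arrays gave 9.21 and 9.74 in titled BTBR, 8.58 and 9.49 in AKR/J, and 6.60 and 6.27 in WSB/EiJ, against 7.35, 7.58, 7.73, 8.35 and 8.23 in C57BL/6J. Both arrays of titled BTBR and of AKR/J lay above all 5 of C57BL/6J, and both of WSB/EiJ below. Against C57BL/6J the difference was 1.63 ± 0.27 (SE) in titled BTBR (limma, adjusted p = 9.3e-06), 1.19 ± 0.27 in AKR/J (adjusted p = 0.0013), -1.08 ± 0.27 in SJL/J (adjusted p = 0.0048) and -1.41 ± 0.27 in WSB/EiJ (adjusted p = 0.00014). The AKR/J call was lost without its replicate 2, at 0.74 (adjusted p = 0.36), and the SJL/J call without its replicate 2, at -0.997 (adjusted p = 0.097), and, under the size limit alone, without C57BL/6J replicate 4 or 5. Of all probe sets, 2.13% were called against C57BL/6J in titled BTBR, 2.13% in AKR/J, 1.45% in SJL/J and 1.54% in WSB/EiJ. NZB/BINJ came next after AKR/J at 8.36, but its arrays read 7.73 and 8.99, 1.27 apart.

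C1qc, the C chain, had its lowest strain mean, 6.23, in KK.Cg-Ay/J and ran to 8.03 in titled BTBR with a median of 6.71 (SD over strains 0.37, within strains 0.23, adjusted p = 6.7e-08). Its arrays read 7.68 and 8.38 in titled BTBR, against 6.53, 6.78, 6.51, 7.38 and 7.21 in C57BL/6J. Both arrays of titled BTBR were above all 5 of C57BL/6J, and the difference of 1.15 ± 0.18 (SE) was the only C1qc contrast called with a 2-fold change (limma, adjusted p = 3.0e-06). Without titled BTBR replicate 2 it was 0.80, under 2-fold (adjusted p = 0.018). C1qa, the A chain, ran from 6.07 in MSM/Ms to 7.42 in titled BTBR with a median of 6.52 (SD over strains 0.29, within strains 0.19, adjusted p = 8.9e-07). It had 7.20 and 7.64 in titled BTBR, against 6.54, 6.55, 6.54, 7.15 and 6.60 in C57BL/6J, a difference of 0.74 ± 0.16 (SE) that was under 2-fold (limma, adjusted p = 0.00035; 0.13 without titled BTBR replicate 2). All 3 chains thus had the same strain at the top. AKR/J and NZB/BINJ had the next highest means, with NZB/BINJ arrays at 6.87 and 7.38 for C1qa and 7.15 and 7.64 for C1qc. From the highest of the 40 strain means, WSB/EiJ was number 37 for C1qa, 40 for C1qb and 34 for C1qc.

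Vcam1, the adhesion molecule that binds the integrin VLA-4 on blood cells, ran from 6.61 in MSM/Ms to 8.86 in titled BTBR with a median of 7.49 (SD over strains 0.53, within strains 0.37, adjusted p = 1.4e-06). Single arrays gave 8.94 and 8.78 in titled BTBR and 8.30 and 9.16 in AKR/J, against 7.58, 6.97, 7.19, 8.13 and 7.64 in C57BL/6J. The arrays of both strains lay above all 5 of C57BL/6J. The differences were 1.36 ± 0.29 (SE) in titled BTBR (limma, adjusted p = 0.00043) and 1.23 ± 0.29 in AKR/J (adjusted p = 0.0017). Without AKR/J replicate 2 the second was 0.80 and not called (adjusted p = 0.33). Vcam1 also had the widest gap between arrays of 1 strain, with 7.11 and 9.19 in NZB/BINJ.

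**Figure D1:**
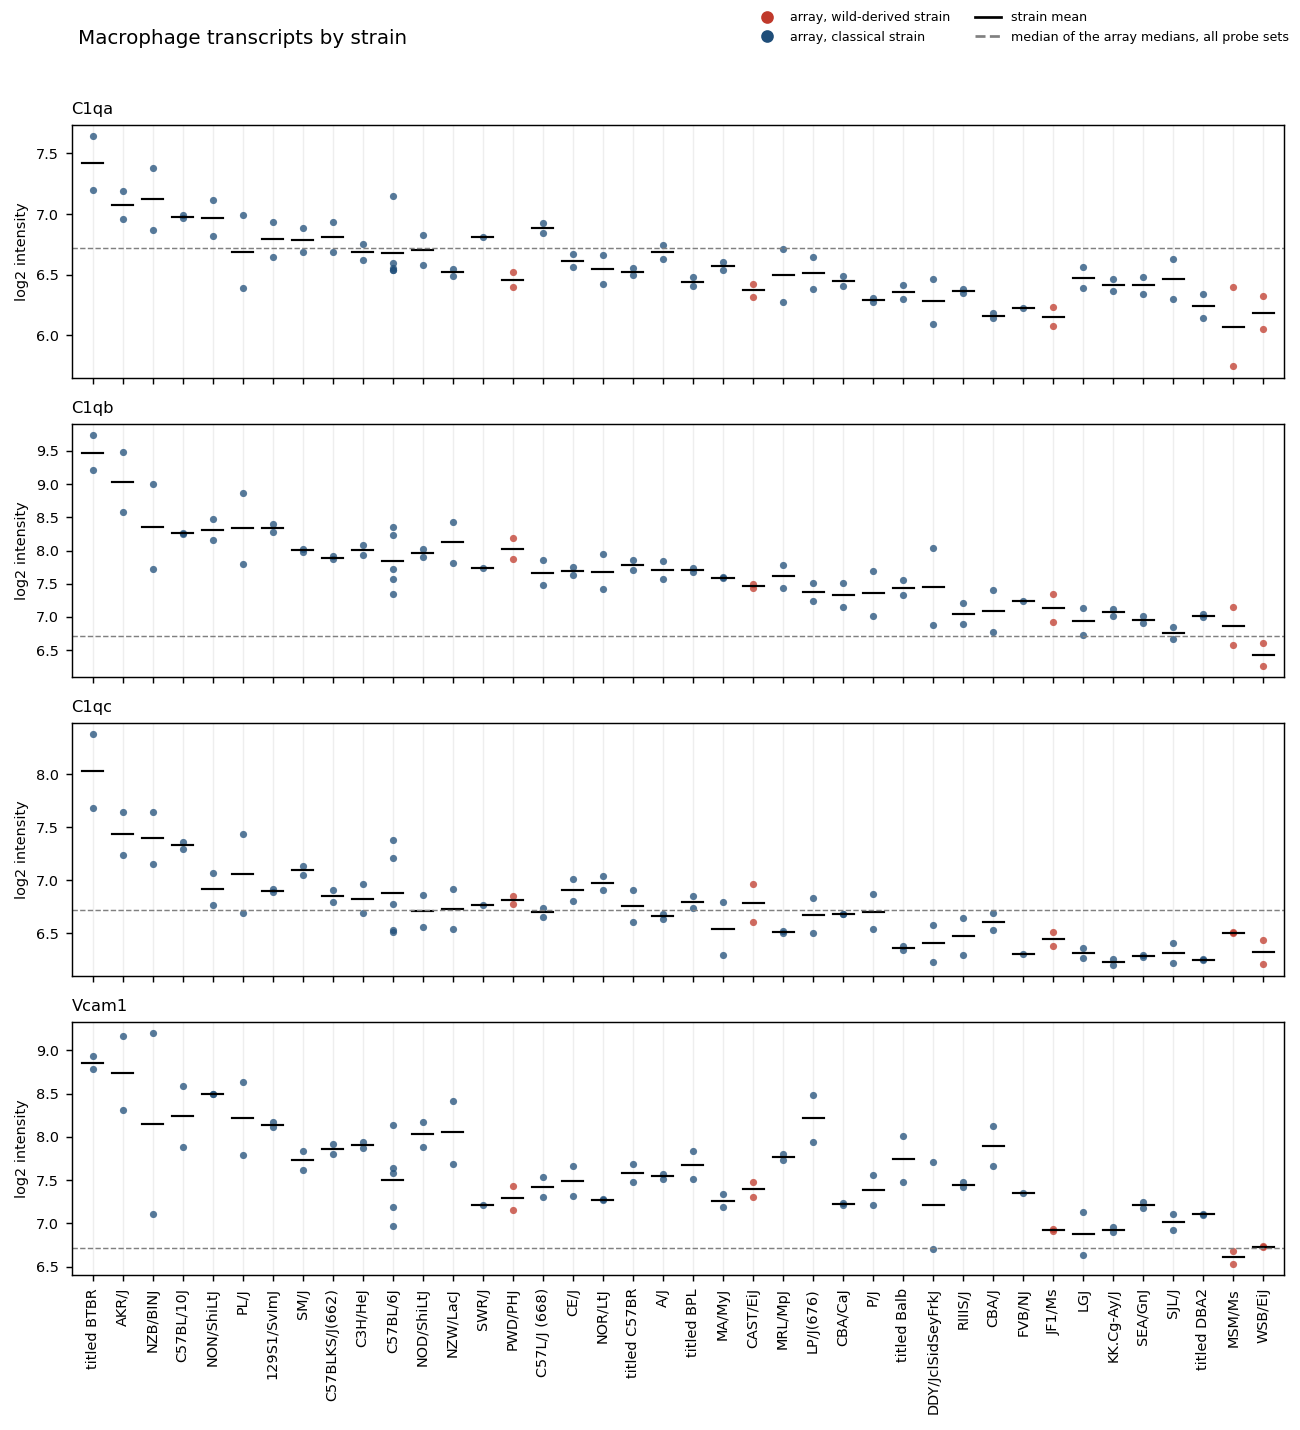
Log2 intensity (vertical axis) of C1qa, C1qb, C1qc and Vcam1 on each array (points) in the 40 strains (horizontal axis, ordered by the mean of the 3 C1q genes), with wild-derived strains in red, classical strains in blue, a bar at each strain mean and a dashed line at the median of the array medians, 6.72. Titled BTBR has the highest mean in all 4 panels, and WSB/EiJ, at the right, lies low in each.

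Among the monocyte genes, F13a1, the A subunit of coagulation factor XIII, had the narrowest range of the features called among strains, 0.87. Its strain means ran from 5.81 in WSB/EiJ to 6.68 in DDY/JclSidSeyFrkJ with a median of 6.10 (SD over strains 0.19, within strains 0.14, adjusted p = 1.4e-05). Single arrays read 6.69 and 6.66 in DDY/JclSidSeyFrkJ and 6.87 and 6.44 in CAST/EiJ, against 5.85 to 6.18 in C57BL/6J. The differences were 0.66 ± 0.11 (SE) in DDY/JclSidSeyFrkJ (limma, adjusted p = 3.7e-05) and 0.63 ± 0.11 in CAST/EiJ (adjusted p = 2.9e-05; 0.054 without CAST/EiJ replicate 2), both under 2-fold. Cx3cr1, the fractalkine receptor of patrolling monocytes and tissue macrophages, ran from 6.92 in CAST/EiJ to 7.39 in KK.Cg-Ay/J, with an SD over strains of 0.10 and an SD within strains of 0.14 (adjusted p = 0.52). No order of strains could be read for it beyond the spread of arrays.

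Ccr2, the receptor for the chemokine CCL2, stood between 4.07 in NOD/ShiLtJ and 4.99 in RIIIS/J in 39 strains and at 6.83 in C57BLKS/J(662). The 2 arrays of C57BLKS/J(662) read 6.41 and 7.25, against 4.21, 4.20, 4.33, 4.24 and 4.42 in C57BL/6J, with no overlap. The difference was 2.55 ± 0.15 (SE; limma, adjusted p = 6.9e-19), and 0.835% of all probe sets were called in this contrast. The C57BL/6J level lay far below the array medians and no detection calls were used, so the size of the difference may be understated. Arrays of RIIIS/J read 5.30 and 4.69 and those of titled DBA2 4.93 and 4.87, which differed from C57BL/6J by 0.71 ± 0.15 (adjusted p = 0.00058) and 0.62 ± 0.15 (adjusted p = 0.0031), both under 2-fold. These 2 calls were lost without RIIIS/J replicate 1 (adjusted p = 0.38) and without titled DBA2 replicate 1 (adjusted p = 0.076). Only 1 of 81 arrays had Ccr2 above its own array median of all probe sets. Of the genes that neighbour Ccr2 on chromosome 9, the chemokine receptors Xcr1, Ccr1, Ccr1l1 and Ccr3 were at 5.32, 11.31, 5.56 and 7.41 in C57BLKS/J(662), inside the range of the other 39 strains in each case.

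The brighter probe set shared by Ly6c2 and Ly6c1, whose products carry the Ly-6C antigen of inflammatory monocytes, was bright in nearly all strains. It read 10.30 and 9.94 in NOD/ShiLtJ, 10.24 and 9.91 in NOR/LtJ and 9.95 and 10.63 in NZB/BINJ, against strain means of 12.50 to 13.61 in the other 37 strains. The 6 arrays lay below all others, and the gap between NZB/BINJ and the next strain, CAST/EiJ, was 2.21. Against C57BL/6J, whose mean was 13.38, the difference was -3.26 ± 0.09 (SE) in NOD/ShiLtJ (limma, adjusted p = 2.7e-32), -3.30 ± 0.09 in NOR/LtJ (adjusted p = 2.2e-32) and -3.09 ± 0.09 in NZB/BINJ (adjusted p = 8.0e-32). For the second shared probe set the differences were -3.13, -3.03 and -2.91 in the same 3 strains. Of all probe sets, 1.79% were called in NOD/ShiLtJ, 0.831% in NOR/LtJ and 2.47% in NZB/BINJ. CAST/EiJ and MA/MyJ were lower than C57BL/6J by less than 2-fold, at 12.50 (adjusted p = 5.7e-11) and 12.84 (adjusted p = 2.5e-05). The mean of this probe set over all arrays, 13.13, was near the neutrophil list means of 13.27 to 13.41. Which cells supplied its signal was not tested, so it is not read as a measure of monocytes.

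The shared probe set was compared with its neighbours on chromosome 15. Ly6i lay at 5.37 to 6.03 in NOD/ShiLtJ, NOR/LtJ and NZB/BINJ, against 5.52 to 7.46 with a median of 6.80 in the other 37 strains. Ly6a2 lay at 11.98 to 12.39 in the 3 strains, against 9.96 to 13.65 with a median of 13.51 in the others. Ly6e, on the other hand, lay above the median of the others, with 11.81 to 12.08 in the 3 strains against a median of 11.10. Ly6g, the antigen of the sort, was at 13.62 to 13.74 in the 3 strains and at 13.44 to 13.88 in the others, with no separation. The other 4 neighbours, Cyp11b2, Ly6m, Ly6g2 and Ly6f, lay in the 3 strains inside the range of the other 37, except that Ly6g2 went down to 6.88 against a lowest of 6.94. These levels are a description, and no test was run on them.

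**Figure D2:**
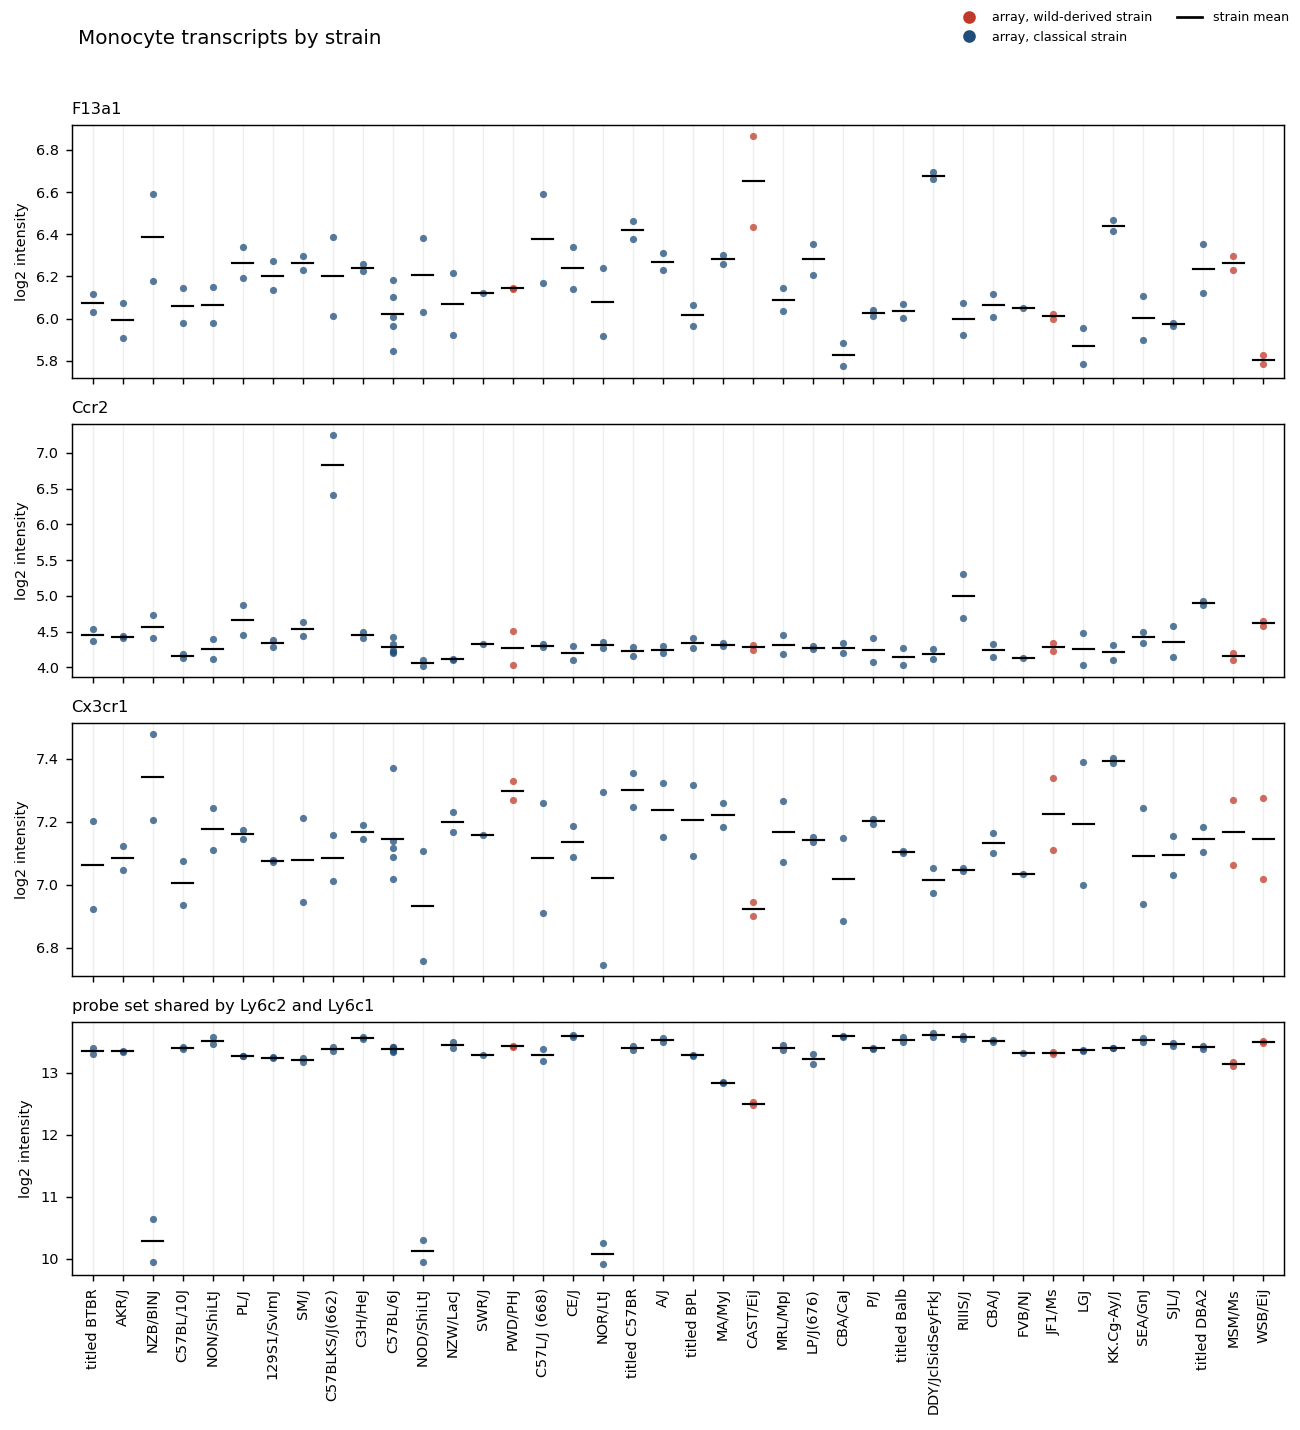
Log2 intensity (vertical axis) of F13a1, Ccr2, Cx3cr1 and the brighter probe set shared by Ly6c2 and Ly6c1 on each array (points) in the 40 strains (horizontal axis, ordered by the mean of the 3 C1q genes), with wild-derived strains in red, classical strains in blue and a bar at each strain mean. C57BLKS/J(662) alone is high for Ccr2 at 6.83, and NOD/ShiLtJ, NOR/LtJ and NZB/BINJ alone lie near 10 for the Ly6c probe set.

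Over all 312 contrasts of the 39 other strains with C57BL/6J, taken over the 8 features, 11 were called at an adjusted p under 0.05 with a difference of at least 1, against 1.62% of all contrasts over all probe sets. They were 4 for C1qb, 1 for C1qc, 2 for Vcam1, 1 for Ccr2 and 3 for the Ly6c probe set, and all are named above. None was called for C1qa, F13a1 or Cx3cr1. Below the size limit, an adjusted p under 0.05 was reached in 6 strains for C1qa, 4 for C1qb, 7 for C1qc, 2 for Vcam1, 6 for F13a1, 2 for Ccr2 and 2 for the Ly6c probe set. Each of these for C1qa, C1qb, C1qc, Vcam1 and Ccr2 was lost when 1 array of its strain was left out. So were 5 of the 6 for F13a1, DDY/JclSidSeyFrkJ being the exception. The contrasts share the 5 arrays of C57BL/6J. No share over all probe sets was computed without the size limit. The counts below that limit therefore have no background beside them and are not read as a result about these genes.

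Agreement of replicate arrays was the second point of interest. The median absolute difference between the 2 arrays of a strain over 37 strains was 0.30 for C1qb, 0.18 for Vcam1, 0.15 for C1qa and C1qc, 0.14 for Ccr2, 0.12 for Cx3cr1, 0.11 for F13a1 and 0.05 for the Ly6c probe set. C1qb was at least 2-fold apart in 3 strains and Vcam1 in 1, and no other feature was so in any strain. In the order of strain means, which has 39 steps between neighbours, few steps exceeded the within-strain SD: 4 for the Ly6c probe set, 2 each for C1qb, C1qc and Ccr2, 1 each for C1qa and F13a1, and 0 for Vcam1 and Cx3cr1. Neighbouring strains in the middle of each order therefore do not differ beyond the spread of arrays. For C1qb the widest step, 0.68, set AKR/J and titled BTBR above NZB/BINJ, and for C1qc a step of 0.59 set titled BTBR above AKR/J.

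The third comparison asked whether macrophage and monocyte genes share 1 strain order. Of 28 pairs of features, 6 were correlated over the 40 strain means, and these were the 6 pairs among C1qa, C1qb, C1qc and Vcam1. The closest pair was C1qb and C1qc, with r = 0.90 and rho = 0.88, and r = 0.83 without AKR/J and titled BTBR, the 2 strains farthest from the C1qb median. C1qa followed C1qb with r = 0.86 (rho = 0.82) and C1qc with r = 0.83 (rho = 0.77). Without the 2 farthest strains, titled BTBR and NZB/BINJ, these were 0.81 and 0.75. Vcam1 followed C1qb with r = 0.85 (rho = 0.79), C1qc with r = 0.76 (rho = 0.70) and C1qa with r = 0.74 (rho = 0.66), and with 0.79, 0.66 and 0.67 without the 2 farthest strains of each C1q gene. For each of the 6 pairs the two-sided permutation test of r gave p = 1e-05, the smallest value 100000 resamples can give, and an adjusted p of 4.7e-05 over the 28 pairs. For rho, 5 of the 6 pairs gave p = 1e-05 with an adjusted p of 5.6e-05, and C1qa with Vcam1 gave p = 3e-05 with an adjusted p of 0.00014. Strains share ancestry, and the test takes them as independent. Pairs of other genes were not tested, so the count of 6 of 28 has no background share beside it.

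None of the other pairs was called. Between a macrophage gene and F13a1, Ccr2 or Cx3cr1 r lay between -0.16 and 0.15, and among these 3 monocyte genes between -0.06 and 0.06. A shared order could be missed in these 3 genes, so its absence was not established. The strain means of Cx3cr1 did not differ beyond the spread of arrays. Ccr2 and F13a1 each lay above the array median on 1 of 81 arrays, and a single strain, C57BLKS/J(662), weighs heavily on r for Ccr2. F13a1 with Cx3cr1, at 0.06, had r = 0.40 without CAST/EiJ and DDY/JclSidSeyFrkJ, the 2 strains farthest from the F13a1 median. The Ly6c probe set splits the strains into 2 clusters, so its correlations were taken within the 37 strains of the upper cluster, a choice made after seeing the data. There r lay between -0.12 and 0.04 with the macrophage genes and was -0.41 with F13a1 (permutation test, adjusted p = 0.055). All 6 macrophage pairs were also called within the 35 classical strains alone and without NOD/ShiLtJ, NOR/LtJ and NZB/BINJ.

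Differences between the 2 arrays of a strain, where the genotype is held fixed, showed part of the same pattern. For them r was taken through the origin, on differences that were not centred. Over 37 strains C1qa and C1qb differed in the same direction in 28, with r = 0.68 (sign-flip permutation test, adjusted p = 0.016 over 28 pairs), and C1qb and C1qc in 24, with r = 0.65 (adjusted p = 0.024). C1qb and Vcam1 had r = 0.72, which missed the threshold (adjusted p = 0.071). Without NZB/BINJ that value was 0.64 (adjusted p = 0.15), while C1qa with C1qb stayed called at 0.63 (adjusted p = 0.029) and C1qb with C1qc at 0.61 (adjusted p = 0.047). The other 3 macrophage pairs had r of 0.45 to 0.53 (adjusted p of 0.11 to 0.18). None of the 22 pairs with a monocyte feature was called. The test was not run on other pairs of genes, so these counts have no background share beside them. The calls depend on single strains: C1qb with C1qc was lost without titled BTBR or without AKR/J, which left 1 pair called in each case. Without titled Balb C1qb with Vcam1 joined the called pairs, and without LP/J(676) C1qc with Vcam1 did.

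**Figure D3:**
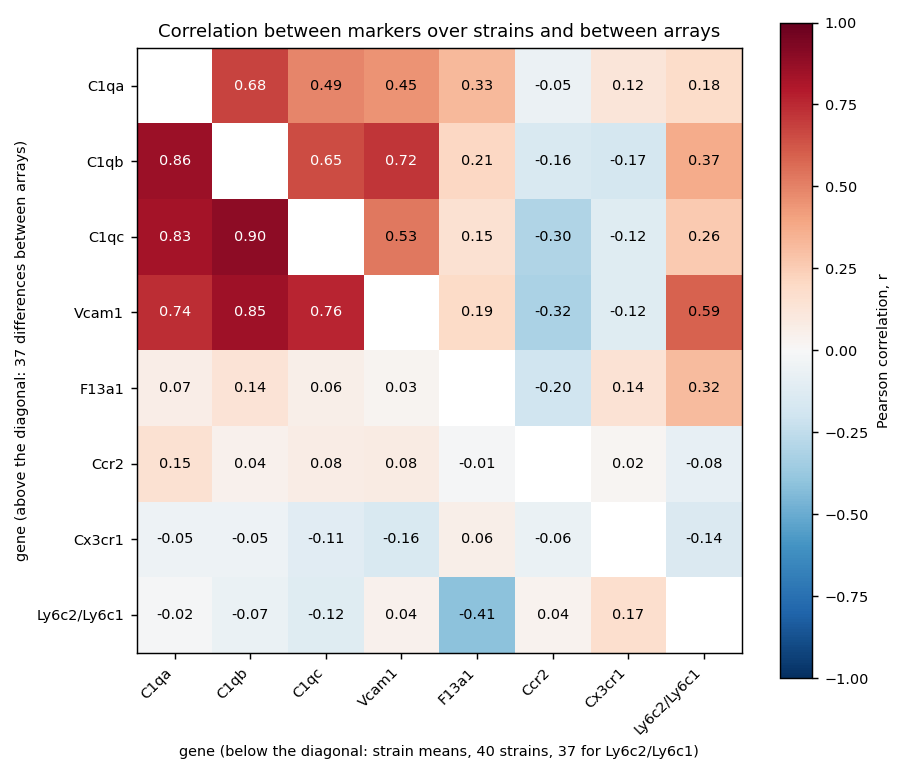
Correlation (colour and printed value) between the 8 features named on both axes. Below the diagonal is Pearson r over strain means (40 strains, or 37 for the Ly6c2 and Ly6c1 probe set). Above it is r through the origin, without centring, over the differences between the 2 arrays of 37 strains. The block of C1qa, C1qb, C1qc and Vcam1 holds 0.74 to 0.90 below the diagonal and 0.45 to 0.72 above it.

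The genes whose strain pattern was most like a member were sought among 4538 named genes that differed among strains with a 2-fold range. Nearest to C1qb was Axl, a receptor tyrosine kinase of macrophages that takes part in the uptake of dying cells (r = 0.93 over 40 strain means, 0.93 without NZB/BINJ). Nearest to C1qa after C1qb were Axl (r = 0.86) and Sdc3, a cell-surface proteoglycan (r = 0.84), and nearest to C1qc after C1qb was Mrc1, the macrophage mannose receptor (r = 0.86). The 10 genes most like the mean of C1qa, C1qb and C1qc were those 3 with Axl, Mrc1, Sdc3, Vcam1, the lysosomal protease Lgmn, Ly86 and Lgals3bp, with r of 0.76 for Lgals3bp to 0.93 for Axl outside C1q itself. These are descriptions over strains that share ancestry and a common normalization.

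The nearest patterns to the monocyte genes were found by the same ranking. F13a1 was nearest to Asap2 (r = 0.58), Tspan10 (0.56) and Tcp11x2 (0.52). For Cx3cr1, whose strain means did not differ beyond the spread of arrays, the nearest were Plpp2, Zfp804a and Akr1c13, with r of 0.57, 0.48 and 0.47 without NZB/BINJ. For Ccr2 the nearest were Mia2 (r = 0.58), Nip7 and Zdhhc6. Without C57BLKS/J(662) these fell to 0.20, -0.00 and -0.04, so the likeness lay in that strain. For the Ly6c probe set the nearest were Fmo5, Setdb1 and 9030619P08Rik. They were ranked over all 40 strains, where the 2 clusters of the probe set dominate a coefficient. Within the 37 strains of the upper cluster their r was -0.08, 0.36 and 0.56.

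Marker lists of other bone marrow cell types, including types without CD11b or Ly6G, were set beside the C1q genes. Of 19 measured macrophage genes, 15 were called among strains (55.3% of all named genes were) and 11, or 57.9%, had r of at least 0.5 with the C1q mean, against 115 of 19752 named genes, or 0.582%. Without NZB/BINJ these counts were 11 and 181. The median r was 0.55 over the macrophage list and -0.01 over all named genes. Of the macrophage genes with the largest spread, Axl (6.53 in WSB/EiJ to 8.73 in titled BTBR) and Hmox1, heme oxygenase 1 (8.29 in SEA/GnJ to 10.06 in FVB/NJ), followed the C1q mean with r of 0.93 and 0.55. Adgre1, the F4/80 antigen (lowest in KK.Cg-Ay/J at 6.40, highest in 129S1/SvImJ at 9.08), and the lysosomal protein Cd68 (8.57 in titled DBA2 to 10.43 in KK.Cg-Ay/J) did so with only 0.35 and 0.33. Csf1r, the receptor for macrophage colony-stimulating factor, and Slc40a1, the iron exporter, both picked after their values were seen, had r of -0.35. The mean of the macrophage list ran from 7.39 in SEA/GnJ to 7.94 in titled BTBR, with AKR/J at rank 3 with 7.89 and WSB/EiJ at 7.47.

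The monocyte list behaved otherwise. Of 18 measured genes 15 were called among strains, but only 1, Irf8 (r = 0.62, picked after its value was seen), had r of at least 0.5 with the C1q mean, and the median r was 0.07. The genes with the largest spread were the endotoxin co-receptor Cd14 (6.26 in titled C57BR to 10.91 in SWR/J), Treml4, Mpeg1 and Emb. Their r with the C1q mean was 0.15, 0.00, -0.02 and -0.43. A mean of at least 7 was reached by 8 genes of the monocyte list, up to 12.15 for Lgals3. The macrophage list had 10 such genes of 19, up to 12.34 for Lilrb4a. Which cells supplied these transcripts was not tested, so neither list is a measure of the number of such cells. Dendritic cell, erythroid, B cell, T and NK cell, eosinophil, basophil and mast cell, and megakaryocyte lists had medians of -0.06 to 0.24, with at most 1 gene at 0.5 or more in any of them. Neutrophil markers had a median of -0.20 and none at 0.5 or more.

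Lists of immature cells were set beside the C1q mean in the same way, with no test. Neutrophil progenitor genes had a median r of 0.43, with 2 of 7 at 0.5 or more (3 without NZB/BINJ), and cell cycle genes a median of 0.40, with 1 of 11 (2 without NZB/BINJ). The list means had r with the C1q mean of 0.49 for neutrophil progenitors and 0.40 for the cell cycle, against 0.45 for the erythroid list and 0.86 for the macrophage list. Of the progenitor genes with the largest spread, Fcnb, a ficolin of early neutrophils, was highest in titled BTBR at 11.01 but had r of only 0.22, and Ms4a3 was highest in NON/ShiLtJ at 8.04 with r of 0.45. In titled BTBR the progenitor list mean was the highest of the 40 strains at 8.10 and the cell cycle list mean at rank 2 with 9.36, while its neutrophil list mean was the lowest at 13.27. AKR/J had rank 3 for the progenitor list at 7.93 and rank 5 for the cell cycle list at 9.09. The part of other cell types or of sort purity in the C1q and Vcam1 differences was not tested.

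**Figure D4:**
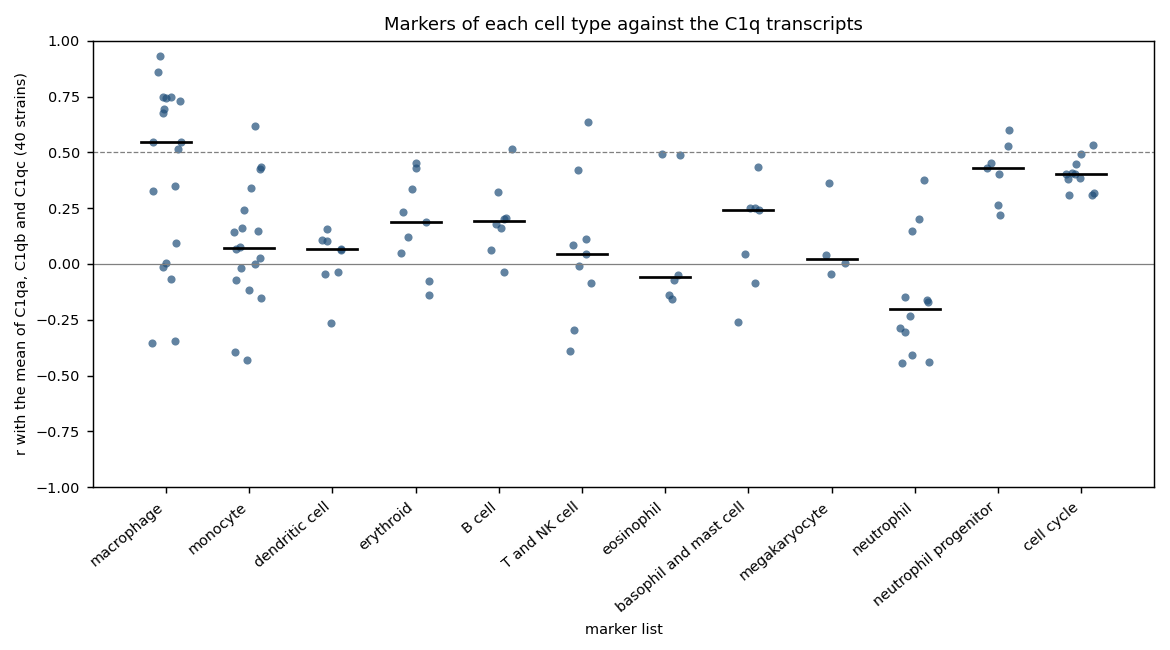
Pearson correlation over 40 strain means with the mean of C1qa, C1qb and C1qc (vertical axis) for each measured gene (points) of the 12 marker lists (horizontal axis), with a bar at the median of each list and a dashed line at 0.5. The macrophage list has the highest median, 0.55, and 11 of its 19 genes at 0.5 or more.

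The C1q genes are neighbours on chromosome 4, and the named genes beside the cluster were looked up in the gene order of GRCm38.p6. Luzp1, Kdm1a, Tex46 and Lactbl1 on one side and Epha8, Zbtb40, Wnt4 and Cdc42 on the other had r with the C1q mean between -0.20 for Cdc42 and 0.33 for Zbtb40. In titled BTBR and AKR/J all but Zbtb40 and Cdc42 lay inside the range of the other 38 strains. Zbtb40 reached 7.83 against a highest value of 7.78 elsewhere, and Cdc42 went down to 12.53 against a lowest of 12.54.

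The last comparison set the 5 wild-derived strains against the 35 classical ones, with the strain as the replicate. Shared ancestry among strains limits this test too, since the fit takes them as independent. Vcam1 was lower in wild-derived strains, at 6.99 ± 0.34 against 7.68 ± 0.50 in classical strains (SD over strains), a difference of -0.69 ± 0.22 (SE; limma, adjusted p = 0.037). It was the 1 feature of 8 called, where 12.2% of all probe sets were called in either direction and 5.55% as lower, and the share is near that background. Its 5 wild-derived means, 7.39 in CAST/EiJ, 7.29 in PWD/PHJ, 6.93 in JF1/Ms, 6.73 in WSB/EiJ and 6.61 in MSM/Ms, all lay below the classical median, and 3 of them inside the classical range of 6.88 to 8.86. The call was lost without DDY/JclSidSeyFrkJ replicate 1 or without NZB/BINJ replicate 2, with an adjusted p of up to 0.051.

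C1qa was 6.25 ± 0.16 in wild-derived and 6.61 ± 0.28 in classical strains, with all 5 wild-derived means below the classical median. The difference of -0.36 ± 0.13 (SE) missed the threshold at an adjusted p of 0.0502 and passed it in 36 of 87 alternatives. C1qb differed by -0.54 ± 0.27 (adjusted p = 0.20) and C1qc by -0.18 ± 0.17 (adjusted p = 0.55). PWD/PHJ, at 8.03 for C1qb, lay above the classical mean of 7.72, so the wild-derived strains were not uniformly low. For F13a1, Ccr2, Cx3cr1 and the Ly6c probe set the differences were 0.02, -0.09, 0.02 and 0.06, with adjusted p of 0.83 or more.

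**Figure D5:**
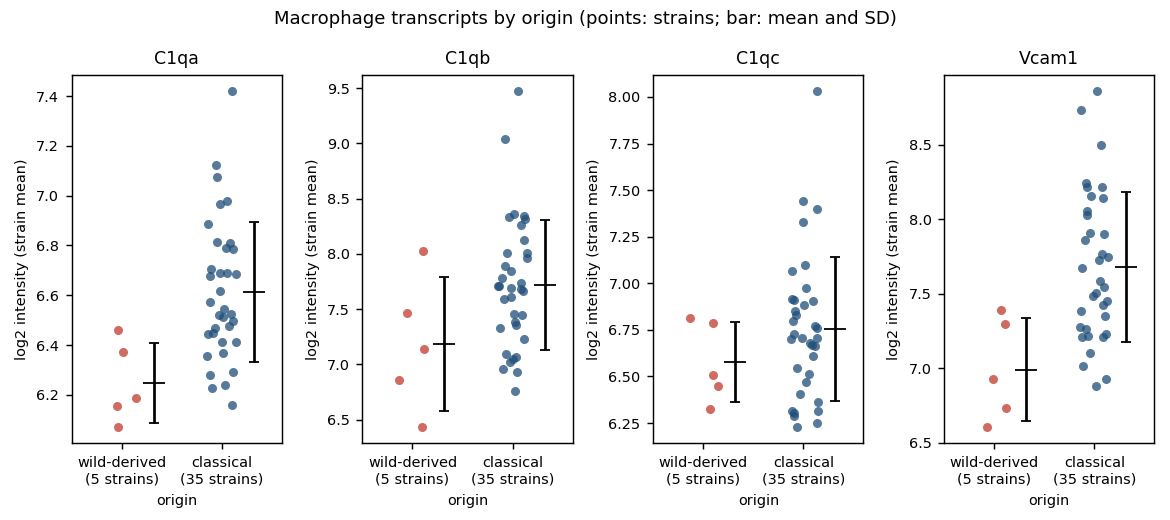
Strain means (points, log2 intensity on the vertical axis) of C1qa, C1qb, C1qc and Vcam1 in 5 wild-derived and 35 classical strains (horizontal axis), with the mean and SD over strains beside the points. Wild-derived strains average 6.99 against 7.68 in classical strains for Vcam1, and the 2 origins overlap in all 4 panels.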

How the data were processed

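Values came from the series' table of 81 arrays. They are probe set intensity values deposited by the authors on a linear scale, as read from their range. Per the submitters' processing notes the tools were RMA and Affymetrix Power Tools. Their versions and roles, the genome build and the array annotation's release were not stated there. Probe-level signals were not used here. The number of arrays limits the precision, and nothing beyond the pools separates biological from technical spread.

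Values were converted to log2 without further scaling. Of 24922 probe sets, 21425 had 1 gene symbol in the platform table, 1399 several and 2098 none; for genes with more than 1, the brightest probe set was used. The members, marker lists (127 entries, 118 matched) and alternatives were chosen with earlier results of these data known. Named were all members, up to 4 called genes per marker list that varied most over strains by SD, and the genes most like each member (3) or the C1q mean (10).

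Strains were grouped by title. Tests used limma 3.58.1 in R 4.3.3 (lmFit and eBayes on all probe sets, 1 mean per group, 41 residual and 7.93 prior degrees of freedom, Benjamini-Hochberg adjustment), with contrasts against C57BL/6J, and wild-derived against classical strains on strain means; origin was assigned from common knowledge of strain names. The brighter shared Ly6c probe set stood for Ly6c2 in counts of 8 features and 28 pairs. Correlations were tested with 100000 permutations or sign flips in numpy 2.4.6. The fits and permutations were first tested on simulated data. Alternatives were a common array median, quantile normalization, a minimum mean of 7, a robust and trended variance prior, the replicate number as a block, other handling of conflicting labels, groups of 1 array left out, classical strains alone, Spearman correlation and each array left out.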

Additional observations from a re-analysis of the deposited data

Results flagged for a closer look

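C1qa in C57BL/6J had 1 array far from the other 4. It read 7.15, against 6.60 for the next array and 6.54 for the lowest, so its gap took up 0.895 of the range of the group, past the critical value of 0.71 for 5 arrays. The same array was also the highest of the 5 for C1qb (8.35), C1qc (7.38) and Vcam1 (8.13). Groups of 5 arrays were looked at for 9 probe sets, and chance marks about 1 in 20 groups. The cause was not tested.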

How the results depend on the processing

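The numbers of called members, contrasts and pairs were recomputed under each alternative, and no called correlation changed sign under any of them, nor did any contrast that lost its call when 1 array was left out; some values near 0 that were not called did, such as the difference by origin of F13a1 (-0.02 to 0.06) and Cx3cr1 (-0.01 to 0.04), and so did several uncalled pairs, such as C1qa with F13a1 (-0.01 to 0.21). A minimum mean of 7 left 4 of the 8 features. Of these, 3 were called among strains, which is not above the 84.9% of such probe sets. All 3 had a 2-fold range, for which no share over such probe sets was computed. For wild-derived against classical strains, 2 were called in place of 1 under quantile normalization, a common array median, the groups of conflicting labels left out, and grouping by background label, C1qa joining Vcam1; the cause was not tested. Leaving out 1 array at a time gave 7 to 7 features among strains, 6 to 7 with a 2-fold range, 9 to 15 contrasts with C57BL/6J (11 with all arrays; 9 without AKR/J replicate 2, 15 without C57BL/6J replicate 1), 0 to 2 features by origin (0 without DDY/JclSidSeyFrkJ replicate 1), 6 to 6 pairs over strains, and 1 to 3 pairs of array differences. Replicate numbers did not pair the arrays: over 35 groups the differences between arrays 2 and 1 had a median correlation of 0.0037 (-0.50 to 0.51). With the replicate block, 7 features, 6 with a 2-fold range, 13 contrasts and 1 feature by origin were called. Ccr2 and F13a1 lie below the median of all probe sets on nearly every array, and with no detection calls differences among their low strains may be compressed. C1qa was above its own array median on 22 of 81 arrays and C1qc on 40, against 77 for C1qb. Differences in C1qa and C1qc may likewise be compressed, which was not tested.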
